A study of Mus musculus with 6 samples.

Results

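The 49 genes described here encode the machinery of autophagy, the removal of damaged mitochondria (mitophagy) and the lysosome. They form a list of gene names whose rule uses no measured value, and all 49 of them are among the 27179 genes of the deposited table. Their mRNA was measured by RNA sequencing in LT-HSC, the long-term stem cells of the bone marrow from which all blood cells descend. Control cells, called WT, came from mice with conditional Prdm16 alleles (Prdm16 cko/cko) and no Mx1-Cre transgene, so both groups carry the same conditional alleles. Knockout cells, called KO, came from mice with the same alleles and the Mx1-Cre transgene (tg/+), in which Cre deletes Prdm16, a zinc-finger regulator of transcription. All mice were adult C57BL/6 animals of 8 to 12 weeks given pIpC in 5 injections, and this synthetic RNA triggers the interferon response and so the Mx1 promoter. That promoter is active in many interferon-responsive cell types besides stem cells. Cells that were lineage-negative, Sca-1+, c-Kit+, CD48- and CD150+ were sorted 5 weeks later. Marrow of 5 mice per genotype was pooled before sorting, and the 3 libraries of a group are technical replicates of 1 pool, so p-values reflect how these portions varied and not how animals vary.

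Autophagy encloses cytoplasm in a double membrane, the autophagosome, and delivers it to the lysosome, an acid compartment filled with hydrolases. A kinase complex starts the process, a lipid kinase complex marks the membrane, lipid carriers enlarge it, and an enzyme cascade couples small ATG8 proteins to it. Proton pumps acidify the lysosome, and the factors TFEB, TFE3 and MITF switch on many of its genes. In blood stem cells, autophagy is known to remove mitochondria and to help keep the cells quiescent, and mouse stem cells that lack Atg7 fail to maintain themselves.

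TFEB and its relatives bind a palindrome in the promoters of many lysosomal genes, known as the CLEAR element, whose core is the E-box CACGTG. RefSeq promoter windows of GRCm38.p6, from 250 bases before to 50 after a gene's start, were available for 39 of the 49 genes (48 windows). The letters TCACGTGA, which contain that E-box and read the same on both strands, occurred in the windows of 6 genes, or 15.4% of the 39. Over all genes with a window the share was 1.12%, and over the tested genes it was 2.25%. CACGTG alone occurred in 12 of the 39 (30.8%), against 11.8% of tested genes. The stretches around TCACGTGA are shown because they are the letters these lysosomal and autophagy genes share, with the match in capitals.

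Ctsa (chr2:164833734-164833810, plus strand): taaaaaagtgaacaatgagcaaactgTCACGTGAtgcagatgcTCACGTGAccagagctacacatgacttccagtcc
Ctsd (chr7:142387893-142387952, minus strand): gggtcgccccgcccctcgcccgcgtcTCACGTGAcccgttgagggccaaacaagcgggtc
Mcoln1 (chr8:3500447-3500506, plus strand): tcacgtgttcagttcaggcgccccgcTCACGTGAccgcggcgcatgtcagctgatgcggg
Atp6v0d1 (chr8:105566035-105566094, minus strand): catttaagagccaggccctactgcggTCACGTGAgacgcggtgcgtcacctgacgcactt
Atp6v1a (chr16:44139358-44139417, minus strand): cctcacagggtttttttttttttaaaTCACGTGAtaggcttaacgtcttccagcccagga
Atg3 (chr16:45158731-45158790, plus strand): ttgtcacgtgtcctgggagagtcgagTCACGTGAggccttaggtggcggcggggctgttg

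In Atp6v0d1, Mcoln1, Atg3 and Ctsd the match begins at positions -4, -46, -72 and -99 from the start of the annotated gene. In Ctsa (-13 for the first of 2 matches) and Atp6v1a (-132) positions count from a listed start that lies inside the annotated gene. A match is a description of these letters and no measure of binding. Of these 6 genes 2 had positive and 4 had negative log2 fold changes of KO against WT, from -0.20 for Ctsa to 0.19 for Atg3. Their median was -0.06, beside 0.00 for the 33 genes whose windows lack the match, and none of the 6 passed the test described next.

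The comparison of KO with WT asks whether the genes of autophagy and the lysosome change when Prdm16 is deleted. Of 49 members, all of which passed the filter on low values, 0 were called higher and 0 lower (limma, adjusted p below 0.05), where 0.699% of all 13018 tested genes were called, 0.407% higher and 0.292% lower. Among the 10058 tested genes within the range of the members' levels 0.587% were called, 0.268% higher and 0.318% lower. At an unadjusted p under 0.05 there were 3 members, Atg7 and Map1lc3b with lower and Psap with higher values. That is 6.12% of the members, beside 10.3% of all tested genes and 9.84% of those in the range of levels. The median log2 fold change of the members was -0.012, with 24 positive and 25 negative values, and that of all tested genes was 0.003. The median size of the difference without regard to sign was 0.104 for members, 0.176 for all tested genes and 0.146 for those in the range of levels.

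The intervals show how large a difference these libraries could have missed. The 95% interval of the fold change lay within 1.5-fold in either direction for 34 of 49 members and within 2-fold for 44. The share within 1.5-fold was 69.4%, beside 44.2% of all tested genes and 55% of those in the members' range of levels. For 135 other genes of the same pathways in that range, described below, it was 64.4%. The range takes in every gene between the lowest and highest member and does not match levels gene by gene. The median standard error (SE) was 0.145 for members and 0.171 for all tested genes in the range. Its part in these shares and in the sizes above was not tested. A p above the threshold does not show that a gene was equal in both groups. On simulated reads in which 200 of 13018 genes were changed, the recovered share was 12.1% at 1.5-fold, 51.9% at 2-fold and 86% at 4-fold. In this simulation 97 changed and 9 unchanged genes were called. The changed genes were drawn from all tested genes, so these shares do not describe the 49 members in particular. Transcript levels do not measure the flow of material through autophagy.

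**Figure D1:**
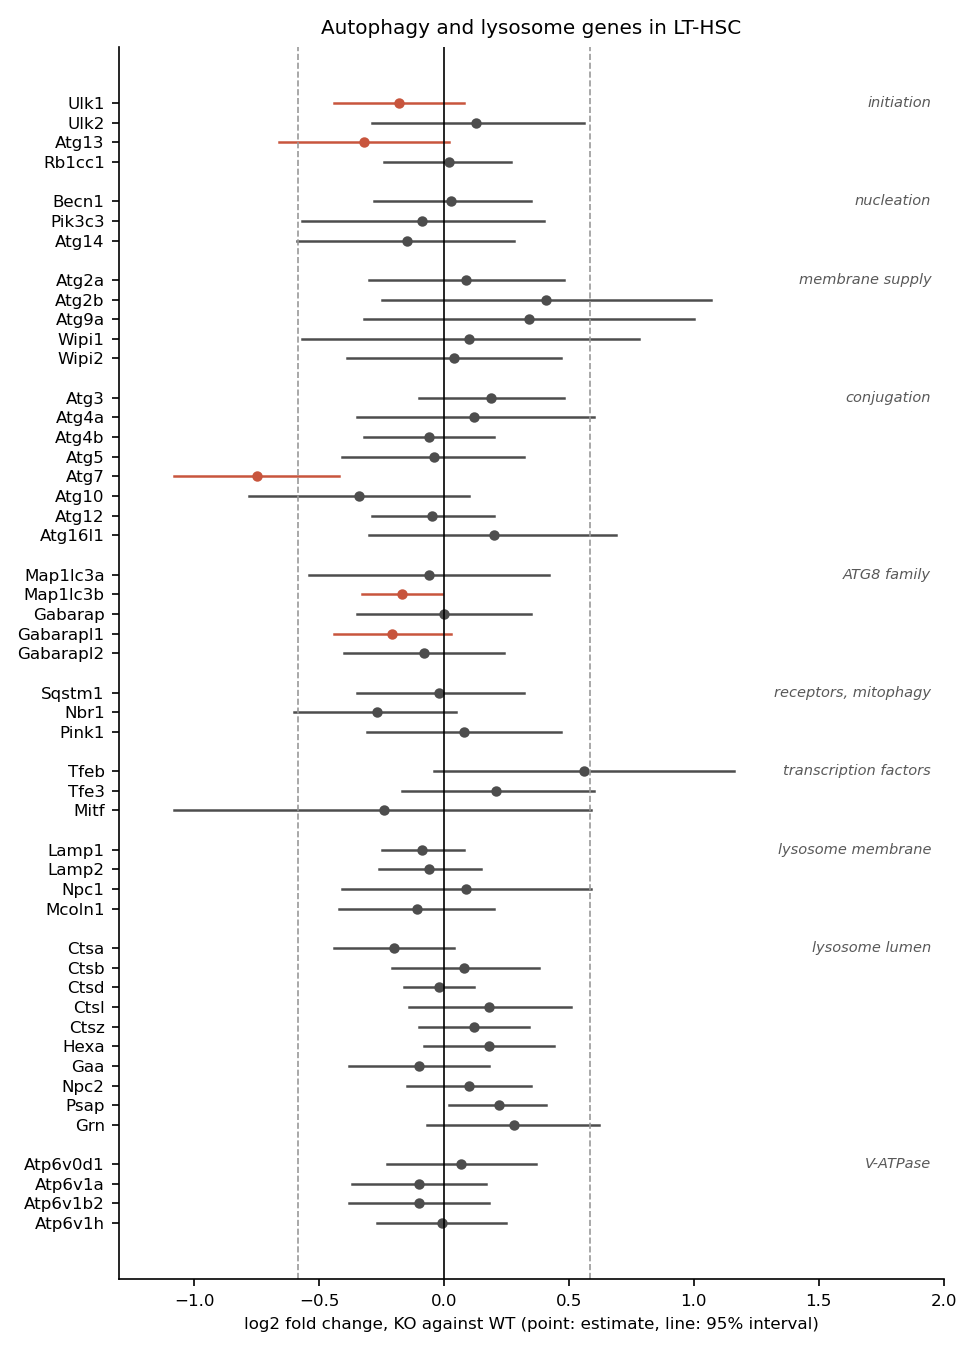
Log2 fold change of KO against WT (horizontal axis) for each of the 49 genes, grouped by role; points are limma estimates, lines 95% intervals, dashed lines mark 1.5-fold and red marks the 5 genes whose WT and KO libraries do not overlap. Atg7 at -0.75 and Tfeb at 0.56 lie farthest from 0, and most intervals cross 0.

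The sequenced libraries held 36747729 to 43743795 reads. Prdm16 was at 31.7 to 50.5 CPM (reads scaled to 1000000 per library) in WT and at 8.74 to 14.7 CPM in KO, which is -1.93 on the log2 scale (SE 0.27, limma adjusted p = 0.00829). That call was lost without the filter (adjusted p = 0.0599), without the trend (0.0967) and without KO replicate 2 (0.065). Markers of LT-HSC such as Kit, Hlf and Procr were present in every library, with a summed level of 3653 to 3914 CPM in WT and 3613 to 3906 CPM in KO over 14 genes, of which limma called 0 and 4 had an unadjusted p under 0.05. Markers of other cell types differed from list to list. Neutrophil markers summed to 306 to 322.1 CPM in WT and 1127 to 1324 CPM in KO (10 of 14 tested called higher). Of these 14, 13 had positive log2 fold changes and 1 a negative one. Prtn3, which was not called, alone had a mean of 209.2 CPM in WT and 211 CPM in KO, so it made up most of the WT sum. Eosinophil, basophil and mast cell markers summed to 13.8 to 18.7 CPM in WT and 640.5 to 741.2 CPM in KO (8 of 10 tested called higher). Most of their WT sum was Cpa3, which was not called, with means of 12.7 CPM in WT and 12.8 CPM in KO. Macrophage markers summed to 596.2 to 608 CPM in WT and 778.4 to 888.1 CPM in KO (1 of 9 tested called higher). The called gene was Lyz2, which alone was at 560.3 CPM in WT and 763 CPM in KO. Of 15 macrophage genes Adgre1, Mrc1, Ms4a7, Marco and Siglec1 had 0 reads in each WT library, and Siglec1 in all 6. Adgre1 had 198, 188 and 274 reads in KO replicates 1 to 3. Of the 9 tested macrophage markers 7 had positive and 2 negative log2 fold changes. At an unadjusted limma p under 0.05 there were 4, all higher in KO. B and plasma cell markers summed to 60.8 to 67.7 CPM in WT and 235.5 to 250.9 CPM in KO (1 of 7 tested called higher). Of these 7, 6 had an unadjusted limma p under 0.05, 5 higher and 1 lower. The lower one was Cd79b, at a mean of 61 CPM in WT and 45.6 CPM in KO. Igkc, the one called, had 0 reads in WT and a mean of 118.3 CPM in KO. Platelet markers summed to 922.5 to 991.7 and 1284 to 1470 CPM (1 of 7 called higher), and erythroid markers to 57.5 to 81 and 102.9 to 112.6 CPM (0 of 8 called, 7 at an unadjusted limma p under 0.05). The sums overlapped for T and NK cell markers, at 76.2 to 101 and 94.8 to 120.9 CPM (0 of 3 called, 0 at an unadjusted p under 0.05), and for stroma and endothelium, at 98.1 to 113.1 and 100.4 to 136.7 CPM (1 of 6 called higher). Since granulocytes and macrophages are rich in lysosomes, these sums stand beside all values below, and their part in them was not tested. In bulk RNA, fewer cells of a type and less RNA per cell cannot be told apart.

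Levels of different genes are compared per kilobase of mRNA, with lengths from GENCODE transcripts that match a curated RefSeq mRNA. The length of a gene is the union of the exons of these transcripts, so it can exceed that of any single mRNA. On this scale Ctsd, the aspartic protease cathepsin D, was highest in WT at 223 ± 7.36 CPM per kilobase (SD, n = 3). Lamp1, the most abundant glycoprotein of the lysosomal membrane, followed at 176 ± 13.9 and Map1lc3b, the ATG8 protein LC3B, at 124 ± 3.59 CPM per kilobase. The WT ranges of these 3 genes did not overlap with each other. Ctsz, a cysteine cathepsin, and Psap, the precursor of the saposins that help degrade sphingolipids, were both at 108 CPM per kilobase and overlapped. Mitf was lowest at 1.52 ± 0.376, below Wipi1 (4.82 ± 0.58), Tfeb (5.55 ± 1.42) and Npc1 (5.96 ± 0.765) CPM per kilobase. Of 48 neighbouring pairs in the WT order 41 overlapped and 7 did not, so most single steps of the order lie within the spread of the libraries. The order in KO was close to it: Ctsd and Lamp1 kept ranks 1 and 2, Psap moved from rank 5 to 3, Map1lc3b from 3 to 5 and Atg7 from 33 to 39.

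**Figure D2:**
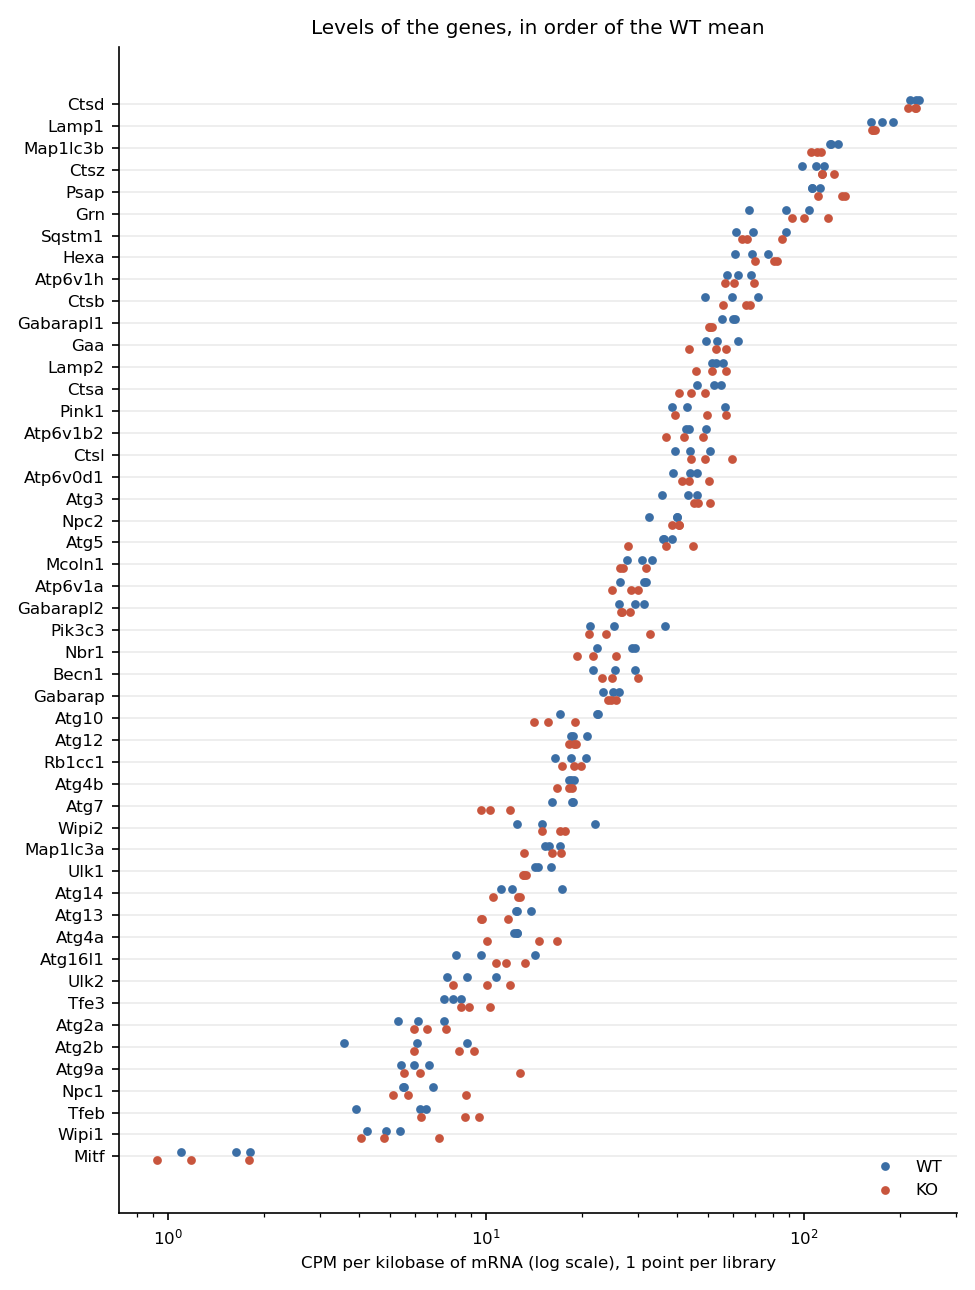
Level of each gene in CPM per kilobase of mRNA (horizontal log axis), 1 point per library, WT in blue and KO in red, ordered by the WT mean. Ctsd, Lamp1 and Map1lc3b lead, Mitf is lowest, and Atg7 at 17.8 CPM per kilobase in WT and 10.6 in KO shows a wide gap between the colours.

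Initiation is carried out by the kinases ULK1 and ULK2 with the adaptor ATG13 and the scaffold FIP200, encoded by Rb1cc1. Ulk1 was at 76, 74.7 and 83.3 CPM in WT replicates 1 to 3 and at 68.7, 68.1 and 69.9 CPM in KO. Atg13 was at 45.9, 45.3 and 50.8 CPM in WT and at 35.4, 35.7 and 43 CPM in KO. Both genes were lower in every KO library than in any WT library, and neither passed the test. The log2 fold change was -0.18 for Ulk1 (SE 0.12, adjusted p = 0.633) and -0.32 for Atg13 (SE 0.15, adjusted p = 0.511). Ulk2 overlapped between groups, at 43.4 to 61.9 CPM in WT and 45.2 to 68.2 CPM in KO (log2 fold change 0.13, SE 0.19). Rb1cc1 was at 141.2 ± 16.3 CPM in WT and 142.5 ± 9.73 CPM in KO.

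The complex that nucleates the membrane joins the lipid kinase VPS34, encoded by Pik3c3, with Beclin 1 (Becn1) and the targeting subunit ATG14. None of these 3 genes separated the groups. Becn1 was at 102.4, 120.1 and 139 CPM in WT and 109.7, 142.4 and 117.7 CPM in KO, a log2 fold change of 0.03 (SE 0.14). Pik3c3 varied most, from 69.4 to 119.4 CPM among WT libraries and from 68.6 to 106.9 CPM among KO libraries. Atg14 was high in WT replicate 1 at 60 CPM, and the other 5 libraries lay between 36.1 and 44.3 CPM. The log2 fold changes of Pik3c3 (-0.09, SE 0.22) and Atg14 (-0.15, SE 0.20) were within their errors.

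Lipid reaches the growing membrane through the scramblase ATG9A and the lipid transfer proteins ATG2A and ATG2B, guided by WIPI1 and WIPI2, which bind the lipid that VPS34 makes. All 5 of these genes had positive log2 fold changes, from 0.04 for Wipi2 to 0.41 for Atg2b, and none passed the test. Atg2b was at 27.1, 66 and 45.9 CPM in WT and 69.2, 44.8 and 62.3 CPM in KO, with 1 low WT library and groups that overlap (SE 0.30, adjusted p = 0.661). Atg9a was at 26.9, 21.9 and 24.1 CPM in WT and at 51.6, 22.3 and 25.1 CPM in KO. Only KO replicate 1 was high, and without it the log2 fold change of Atg9a went from 0.34 to -0.03. Atg2a overlapped between groups, at 33.8 to 47 CPM in WT and 37.8 to 47.6 CPM in KO, and its sign also turned on leaving out WT replicate 1 (from 0.09 to -0.02).

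The conjugation cascade gave the largest difference of the whole set. Atg7 (gene ID 74244, chromosome 6, 114643127 to 114860604, mm10) encodes the E1-like enzyme that activates both ATG12 and the ATG8 proteins. It was at 63.1, 72.7 and 73.6 CPM in WT and at 37.8, 46.6 and 40.2 CPM in KO. Every KO library was below every WT library, the nearest being 46.6 and 63.1 CPM. The KO level was 59.4% of WT, a log2 fold change of -0.75 (SE 0.15, 95% interval -1.08 to -0.42). The test was missed narrowly at an adjusted p of 0.0583, with an unadjusted p of 0.000443 (limma).

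The call of Atg7 depends on the processing. It passed with a filter of 5 CPM (adjusted p = 0.033), with log2(CPM + 1) (0.0348), with voom (0.0469) and after quantile normalization (0.0471). It did not pass under the other 11 alternatives, and leaving out single libraries gave 0.0751 to 0.224. Over these 15 alternatives its log2 fold change stayed between -0.84 and -0.69.

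None of the other 7 genes of the cascade separated the groups or passed the test. Atg3, the E2-like enzyme that passes ATG8 proteins to the lipid, was at 73.6, 94.9 and 89 CPM in WT and 95.7, 104.1 and 92.5 CPM in KO, a log2 fold change of 0.19 (SE 0.13). Atg10, the E2-like enzyme for ATG12, was at 35.7, 35.5 and 27.1 CPM in WT and 24.8, 22.5 and 30.2 CPM in KO (-0.34, SE 0.20, adjusted p = 0.59). Its groups overlapped through WT replicate 3 and KO replicate 3. Atg5, Atg12 and Atg16l1 encode the complex that directs lipidation, and their log2 fold changes were -0.04, -0.05 and 0.20. Those of the proteases Atg4a and Atg4b, which trim and recycle ATG8 proteins, were 0.12 and -0.06. No test of the difference between Atg7 and these genes was made.

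**Figure D3:**
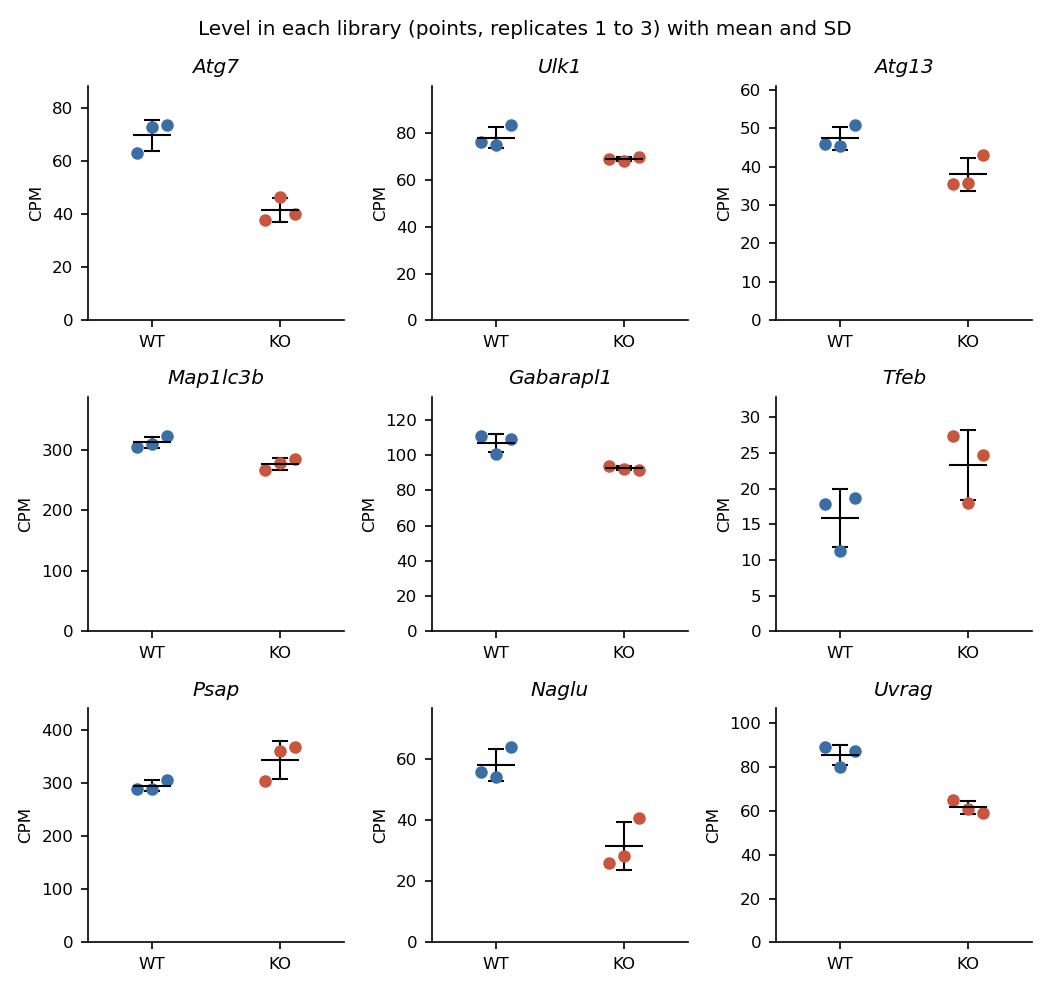
Level in CPM (vertical axis, from 0) of 9 genes in each WT (blue) and KO (red) library, with bars for the mean and SD of 3 libraries. Atg7 runs from 63.1 to 73.6 CPM in WT and from 37.8 to 46.6 CPM in KO, and Naglu and Uvrag are separated in the same direction, while in Tfeb and Psap 1 KO library lies within the WT range.

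The ATG8 proteins are ubiquitin-like tags that sit on the autophagosome and recruit cargo. Map1lc3b (chromosome 8, 121590438 to 121598760) was at 305.7, 309.6 and 323.1 CPM in WT and 266.7, 279.3 and 285.8 CPM in KO. Gabarapl1 (chromosome 6, 129533192 to 129542331) was at 110.9, 100.9 and 109.1 CPM in WT and 93.8, 92.4 and 91.9 CPM in KO. In both genes the KO libraries lay below all WT libraries, by small amounts. The log2 fold changes were -0.17 (SE 0.07, adjusted p = 0.437) for Map1lc3b and -0.21 (SE 0.10, adjusted p = 0.538) for Gabarapl1, and neither passed the test. Gabarapl2 overlapped (-0.08, SE 0.14), Gabarap was at 33.6 CPM in both groups, and Map1lc3a was at 17.9 ± 1.07 CPM in WT and 17.2 ± 2.30 CPM in KO. Per kilobase of mRNA, Map1lc3b made up 49 ± 1.53% of the family's transcripts in WT and 48 ± 1.35% in KO, and Gabarapl1 23.3 ± 1.01% and 22.3 ± 0.430%. These differences were no larger than the spread between libraries. The share of Gabarap was 9.9, 10.5 and 9.23% in WT and 10.7, 11.3 and 10.7% in KO, higher in each KO library than in any WT library, with no test made. The reads of the 5 genes together summed to 514.4 to 524.6 CPM in WT and 460.3 to 473.8 CPM in KO. ATG8 genes have processed copies elsewhere in the genome, and how reads matching several places were counted is not given in the sources used here.

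Over the whole set, WT and KO libraries did not overlap for 5 members (Ulk1, Atg13, Atg7, Map1lc3b and Gabarapl1), all lower in KO. That is 5 of 49, where 16.5% of all tested genes did not overlap, 8.01% lower and 8.52% higher. In the range of the members' levels it was 15.8%, 7.91% lower and 7.88% higher. After median centring or quantile normalization 6 did not overlap, 1 of them higher. The count was 9, 15, 10, 8 and 11 without WT replicate 2, WT replicate 3 and KO replicates 1, 2 and 3 in turn, with fewer libraries to separate. Without WT replicate 3, 7 of the 15 were higher. The share over all tested genes was not computed under these alternative settings, so these counts have no background to be read against.

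Cargo receptors bind both ubiquitin-tagged material and ATG8 proteins. Sqstm1, which encodes p62, was at 173.1, 195.4 and 247.9 CPM in WT and 241.1, 187.4 and 179.8 CPM in KO, so the spread within each group exceeded the difference (log2 fold change -0.02, SE 0.15). Nbr1, a related receptor, was at 146.9, 113.6 and 150 CPM in WT and 98.1, 110.4 and 130.9 CPM in KO (-0.27, SE 0.15, adjusted p = 0.559). Pink1, the kinase that marks damaged mitochondria for removal, was at 91.4 to 134.7 CPM in WT and 93.2 to 134.8 CPM in KO. None of the 3 separated the groups.

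Among the transcription factors of lysosome and autophagy genes, Tfeb (chromosome 17, 47737037 to 47792416) had the largest positive difference of the 49 genes. It was at 17.8, 11.2 and 18.6 CPM in WT and 27.4, 17.9 and 24.6 CPM in KO. KO replicate 2 lay within the WT range, and the log2 fold change of 0.56 (SE 0.27, 95% interval -0.04 to 1.16) did not pass the test (adjusted p = 0.506). Tfe3 was at 25.8 to 29.4 CPM in WT and 29.3 to 36 CPM in KO, overlapping narrowly (0.21, SE 0.17, adjusted p = 0.707). Mitf was at 5.69 to 9.41 CPM in WT and 4.8 to 9.33 CPM in KO (-0.24, SE 0.38), with the widest interval of the 3, from -1.08 to 0.59.

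Of the 4 genes for lysosomal membrane proteins none separated the groups, and 3 had 95% intervals within 1.5-fold, Npc1 being the exception. Lamp1 was at 422.8, 360.8 and 391.6 CPM in WT and 368.9, 371.5 and 365.1 CPM in KO (log2 fold change -0.09, SE 0.07). Its 95% interval, -0.25 to 0.08, corresponds to 0.84 to 1.06 times the WT level. Lamp2, the partner glycoprotein, was at 269 ± 9.85 CPM in WT and 259.4 ± 27.8 CPM in KO (-0.06, SE 0.09). Mcoln1, a calcium release channel, was at 63.3 ± 5.57 and 58.7 ± 6.19 CPM (-0.11, SE 0.14). Npc1, the cholesterol exporter, was at 28.7 to 35.7 CPM in WT and 26.7 to 45.3 CPM in KO, with KO replicate 1 the highest library.

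The lumen of the lysosome holds hydrolases and their helpers, and 7 of these 10 genes had positive and 3 had negative values. Ctsd was the steadiest, at 478.2, 458.4 and 489.3 CPM in WT and 475.3, 451.1 and 481.2 CPM in KO, a log2 fold change of -0.02 with a 95% interval of -0.16 to 0.12. Psap (chromosome 10, 60277628 to 60302600) was at 289.4, 290 and 306.7 CPM in WT and 303.3, 360.7 and 368.1 CPM in KO. KO replicate 1 lay within the WT range, and Psap did not pass the test (0.22, SE 0.09, adjusted p = 0.434). Grn, which encodes progranulin, a lysosomal growth factor precursor, was at 157.5, 205.1 and 243.8 CPM in WT and 278.1, 233.9 and 215 CPM in KO (0.28, SE 0.15, adjusted p = 0.574). Ctsa, the carboxypeptidase that protects other lysosomal enzymes, was at 169.7 to 202.1 CPM in WT and 148.9 to 179.7 CPM in KO (-0.20, SE 0.11, adjusted p = 0.559). The cysteine cathepsins Ctsb, Ctsl and Ctsz (0.08, 0.18 and 0.12), the hexosaminidase subunit Hexa (0.18), the glucosidase Gaa (-0.10) and the cholesterol carrier Npc2 (0.10) overlapped between groups. The 10 genes summed to 2001, 2119 and 2327 CPM in WT and 2341, 2176 and 2263 CPM in KO, with WT replicate 1 lowest.

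The libraries of a group differed among themselves in these lumen genes. WT replicate 1 was the lowest of the WT libraries for 7 of the 10 genes and WT replicate 3 the highest for 9. KO replicate 1 was the highest KO library for 6 of the 10. Over all 49 members, KO replicate 2 was the lowest of the 6 libraries for 15 genes (30.6%, beside 12.8% of all tested genes), and WT replicate 1 for 13 (26.5%, beside 21.4%). The macrophage marker sum was 596.2, 608 and 605.9 CPM in the WT libraries and 778.4, 888.1 and 857.4 CPM in the KO libraries. Of this sum Lyz2 alone had a mean of 560.3 CPM in WT and 763 CPM in KO. The part of these markers in the lumen genes was not tested.

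**Figure D4:**
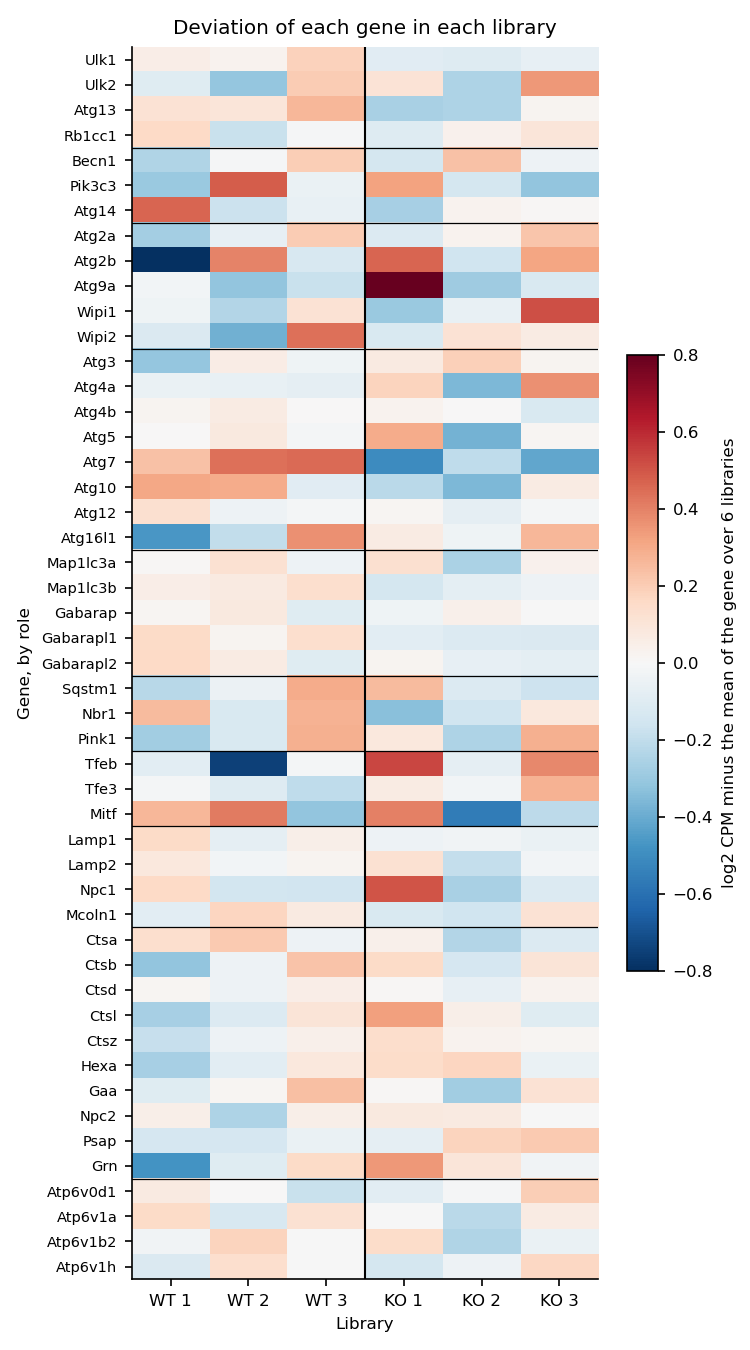
Deviation of each gene in each library from that gene's mean over 6 libraries, in log2 CPM (colour, red higher and blue lower), genes in rows by role and libraries in columns, the darkest shades including values beyond the colour scale. Atg7 changes colour at the line between WT and KO, whereas Atg9a is marked by KO 1 alone and the lumen genes such as Grn by a low WT 1.

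The vacuolar ATPase pumps protons into the lysosome. Atp6v1a and Atp6v1b2 encode the ring that hydrolyses ATP, Atp6v1h a regulatory subunit and Atp6v0d1 a subunit that links the ring to the membrane part. All 4 genes had 95% intervals within 1.5-fold. Their log2 fold changes were -0.10, -0.10, -0.01 and 0.07, with SEs of 0.12, 0.12, 0.12 and 0.13. Atp6v1a was at 135.7, 111.7 and 132.8 CPM in WT and 121.6, 105.2 and 127.5 CPM in KO, and Atp6v1h at 128.2 ± 11.3 and 127.3 ± 14.1 CPM.

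A further 147 genes of the same pathways, in 7 lists, were read from the same fit. Of these 142 were tested, 0 were called in either direction and 15 had an unadjusted p under 0.05 (10.6%, beside 10.3% of all tested genes), 6 higher and 9 lower. Their median log2 fold change was -0.026. WT and KO libraries did not overlap for 7 of the 142 with higher and 10 with lower values in KO. Over all tested genes these shares were 8.52% higher and 8.01% lower. The smallest adjusted p was that of Naglu, a lysosomal enzyme that degrades heparan sulfate, at 55.7, 54.3 and 64 CPM in WT and 25.9, 28.2 and 40.6 CPM in KO. All its KO libraries were below all WT libraries, at 53.5% of the WT level (log2 fold change -0.90, SE 0.19, adjusted p = 0.0878), and with a filter of 5 CPM it was called (0.0451).

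Of 19 other core autophagy genes 4 had an unadjusted p under 0.05. Uvrag, a Beclin 1 partner, was at 89.1, 80.1 and 87.2 CPM in WT and 64.7, 61 and 58.8 CPM in KO (-0.47, SE 0.12, adjusted p = 0.167). Stx17, the SNARE protein that fuses the autophagosome with the lysosome, had the opposite sign, at 43.9 to 50.6 CPM in WT and 58.1 to 71.9 CPM in KO (0.42, SE 0.14, adjusted p = 0.318). Neither passed the test. The groups of each did not overlap, which is to be read beside the counts and shares given above for the pathway genes. Among receptors, Tax1bp1 was at 577.4 ± 46.8 CPM in WT and 482.7 ± 27.9 CPM in KO (-0.26, adjusted p = 0.26) and Wdfy3 at 93.8 ± 15.6 and 121.3 ± 18.4 CPM (0.37, adjusted p = 0.441).

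In the list of 38 other lumen genes 37 were tested and 7 had an unadjusted p under 0.05, 4 higher and 3 lower. Lgmn, the protease legumain, was at 1.26, 3.72 and 2.38 CPM in WT and 11.2, 8.92 and 6.36 CPM in KO (1.93, SE 0.50, adjusted p = 0.177). Ctsh and Ctss, 2 cysteine cathepsins chosen after their values were seen, were at 15 ± 6.90 and 17.1 ± 2.66 CPM in WT and at 31.2 ± 5.68 and 25.2 ± 4.34 CPM in KO. The other tested cathepsins of this list, Ctsc, Ctsf and Ctso, had log2 fold changes of -0.04, -0.35 and -0.11. Lgmn, Ctsh and Ctss are abundant in macrophages and other antigen-presenting cells. Of the 9 tested macrophage markers 1, Lyz2, was called higher in KO, with the signs, sums and markers at 0 given above. The part of other cell types in these values was not tested.

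Of the 21 other membrane genes Cd63, a tetraspanin, was at 415.2 ± 6.63 CPM in WT and 350.3 ± 31.3 CPM in KO (-0.25, SE 0.08, adjusted p = 0.288), and Sort1, a sorting receptor, had a value of 0.20 (adjusted p = 0.581). Of the 28 genes of mTORC1 and AMPK signalling, the nutrient sensors that restrain or start autophagy, 27 were tested and 1 had an unadjusted p under 0.05. It was Prkaa1, a catalytic subunit of AMPK, at 113.6, 78.7 and 79 CPM in WT and 53.5, 69.8 and 63 CPM in KO (-0.53, SE 0.17, adjusted p = 0.308), all KO libraries below all WT libraries. Flcn, a regulator of mTORC1 and TFEB, followed at -0.20 (SE 0.09, adjusted p = 0.496). The 14 tested proton pump genes, led by Atp6ap2 (0.24, adjusted p = 0.53) and Atp6v0a2 (0.41, adjusted p = 0.561), and the 10 genes of membrane fusion, led by Plekhm1 (-0.44, adjusted p = 0.66) and Vps33a (-0.20, adjusted p = 0.66), had 0 members at an unadjusted p under 0.05. The 5 genes below the filter were Ctsk, Atp6v0d2, Atp6v0e2, Atp6v1b1 and Rragd, all at or under 1.28 CPM in every library.

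**Figure D5:**
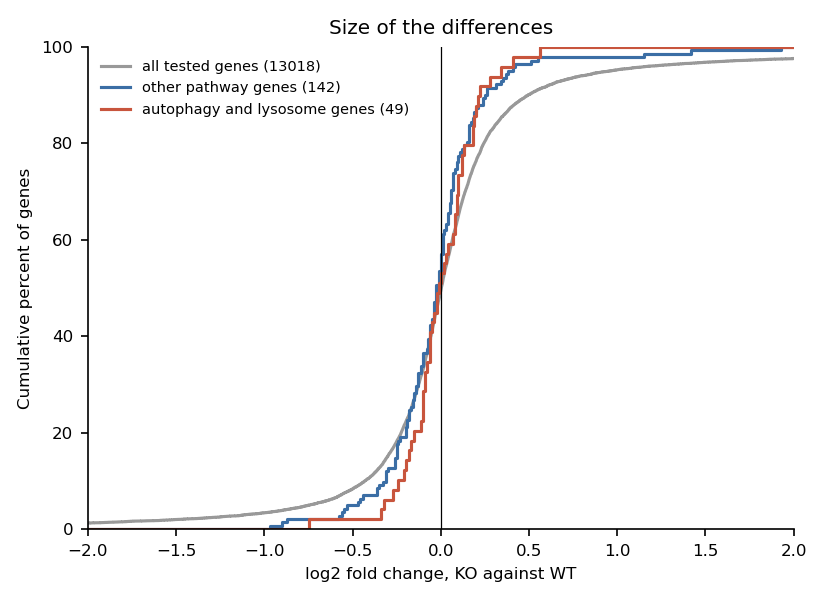
Cumulative percent of genes (vertical axis) by log2 fold change of KO against WT (horizontal axis) for the 49 genes (red), the 142 other pathway genes tested (blue) and all 13018 tested genes (grey), drawn within 2 of 0, so that genes beyond are out of view. All 3 curves pass close to 0 at their middle, with medians of -0.012, -0.026 and 0.003. The lower and upper quartiles, in the same order, were -0.1 and 0.12, -0.17 and 0.08, and -0.17 and 0.18. The red curve runs from -0.75 to 0.56, and such a span tends to grow with the number of genes in a set.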

How the data were processed

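RNA from sorted LT-HSC was sequenced in 6 libraries, 3 per group. The authors deposited log2 values of counts scaled to 1000000 reads (CPM) for 27179 NCBI gene IDs. Tools named per the submitters' processing notes are HISAT2, featureCounts, FastQC and limma, with build mm10. Their versions, the strand setting and the handling of multiply matching reads were not given in the sources used here. Spans of 9 members overlap a tested gene (Becn1, Atg4a, Atg12, Map1lc3b, Npc1, Ctsa, Ctsb, Ctsz and Hexa), and without the strand setting such reads cannot be told apart. With 0.5 read removed and each library's effective size restored, 100% of values were whole reads within 0.01, and CPM in the text are these reads over that size.

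Symbols came from RefSeq (25275 IDs matched). Genes with deposited values of at least 1 CPM in at least 3 of 6 libraries (13018) entered a linear model in limma 3.58.1 (R 4.3.3, eBayes with a trend), with Benjamini-Hochberg adjustment over all of them. Every pair of libraries differed by more than sampling noise (chi-square per degree of freedom 38.9 to 86.1). Members, lists and tests were chosen with earlier results of these data known. Genes named with their tests were the 3 smallest p-values of each of 10 roles, members at 0.5 or more on the log2 scale and the 2 smallest p-values of each of 7 pathway lists. Other members are given more briefly, by level, range or log2 fold change. Cell markers are given by sums, beside Lyz2 and Igkc, the called macrophage and B cell markers. Adgre1, Cd79b, Prtn3 and Cpa3 were added after their values were seen. Alternatives were filters, scalings, variance models, log2(CPM + 1), voom, a block on replicate number and the omission of each library. The test was checked on simulated data.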

Additional observations from a re-analysis of the deposited data

How the results depend on the processing

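Over 15 alternatives, 651 of 675 values of the 45 named genes kept their direction and their side of the threshold. Over all genes 91 were called, 33 without the filter, 164 with log2(CPM + 1) and 41 to 92 on leaving out 1 library. Of the members 1, Atg7, was called with a filter of 5 CPM, quantile normalization, log2(CPM + 1) and voom, and 0 on leaving out any library. Of the other pathway genes 1, Naglu, was called with a filter of 5 CPM. The count of members whose groups do not overlap ran from 6 to 15 on leaving out a library, with no share over all tested genes computed beside it. Log2 fold changes that turned sign when 1 library was left out ranged over 0.00 to 0.29 (Ulk2), -0.28 to 0.04 (Atg14), -0.27 to 0.13 (Pik3c3), -0.08 to 0.14 (Becn1), -0.03 to 0.57 (Atg9a), -0.02 to 0.21 (Atg2a), -0.04 to 0.24 (Pink1), -0.15 to 0.13 (Sqstm1), -0.13 to 0.02 (Lamp2) and -0.01 to 0.13 (Atp6v0d1); the cause was not tested. With replicate number as a block 67 genes and 0 members were called, and Atg7 had an adjusted p of 0.12. Deviations of same-numbered libraries correlated at -0.01, -0.021 and 0.02, and not every library correlated best with its own number. These values show no pairing by number. Whether same-numbered libraries shared a preparation step is not given in the sources used here. Libraries of 1 group differed by far more than counting error, so intervals reflect more than depth.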

Other observations

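Genes beside Atg7 on chromosome 6 were looked at after its value was seen. Vgll4, next to Atg7, differed by -0.07 on the log2 scale (SE 0.12, limma adjusted p = 0.881), and Tamm41, farther along, by 0.26 (SE 0.13, limma adjusted p = 0.525) with KO libraries above all WT libraries.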
